A study of Mus musculus with 25 samples.

Results

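The miRNAs miR-103-3p (mmu-miR-103-3p on the array) and miR-107-3p (mmu-miR-107-3p) are a pair of short regulatory RNAs that are cut from hairpins lying in introns of the pantothenate kinase genes, which encode the enzymes that start the synthesis of coenzyme A. The pair was chosen by name on one-colour Agilent mouse miRNA arrays, and it makes up 2 of the 1122 mouse miRNAs on the array and 2 of the 330 that were tested. Both were detected on all 25 arrays. The study measured snap-frozen mammary tissue of female FVB mice. The groups were 2 pools of normal mammary tissue from wild-type mice (Normal), 7 tumours of MMTV-Met mice (Met), 8 tumours of MMTV-Met;Trp53fl/+ mice with Cre (MetTrp53) and 8 tumours of Trp53fl/+ mice with Cre (Trp53). MMTV-Met is a transgene that places the receptor tyrosine kinase Met under the mouse mammary tumour virus promoter. Trp53fl/+ is 1 conditional allele of the gene for the tumour suppressor p53 beside 1 unaltered allele. The driver of Cre, the ages of the mice and the number of mice in a pool were not given in the sources used here. Pool 1 came from multiparous and pool 2 from nulliparous mice.

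A miRNA guides the Argonaute protein to messenger RNAs that pair with its seed, the bases 2 to 8 from its 5′ end. The pair is best known for roles in metabolism, where it acts on insulin sensitivity and is present in fat and liver, and for acting on Dicer, the enzyme that makes miRNAs. It also belongs to the wider group of miR-15 and miR-107, whose members carry the bases AGCAGC near the 5′ end. A link to p53 has been described for miR-107, which makes its level in tumours with a Trp53 deletion a natural question of this design.

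The mature sequences show how alike the members are, which matters for an array that measures them by hybridisation. Capitals mark the seed and the single position at which they differ, with positions counted from 1 at the 5′ end, and the sequences are those of RefSeq on GRCm38.p6.

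miR-103-3p: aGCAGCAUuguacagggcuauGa

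miR-107-3p: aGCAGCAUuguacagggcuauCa

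They are 23 bases long, are identical at 22 positions, and differ by G22C, with the base of miR-103-3p first. They share the seed GCAGCAU, so that seed pairing alone gives them the same targets. How far a probe for one member also binds the other was not tested.

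The same mature miR-103-3p comes from a pair of loci, so its signal cannot be assigned to one of them. The hairpins are shown because they differ between the loci while the mature stretch, in capitals, does not. They were taken from RefSeq on GRCm38.p6. Mir103-1 lies at chr11:35782396-35782481 on the plus strand within Pank3, Mir103-2 at chr2:131288052-131288137 on the plus strand within Pank2, and Mir107 at chr19:34820687-34820773 on the minus strand within Pank1. Each hairpin lies on the strand of its host gene.

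Mir103-1: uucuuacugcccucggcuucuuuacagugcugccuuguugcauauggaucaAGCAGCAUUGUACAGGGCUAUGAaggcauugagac

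Mir103-2: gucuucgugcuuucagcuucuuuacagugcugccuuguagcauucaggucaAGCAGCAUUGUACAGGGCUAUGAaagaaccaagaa

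Mir107: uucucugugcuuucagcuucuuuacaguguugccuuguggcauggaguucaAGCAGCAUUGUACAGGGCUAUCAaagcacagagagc

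The opposite arms of these hairpins, miR-103-1-5p and miR-107-5p, were each detected on 0 of the 25 arrays, and miR-103-2-5p was not analysed here. Messenger RNAs of the Pank genes were not analysed here.

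Levels are given as log2 of the probe intensity after each array was scaled to its own 75th percentile. They are comparable between arrays for 1 miRNA but not between miRNAs, since probes differ in brightness. The arrays detected 220 to 334 mouse miRNAs. The scaling percentile spanned a 3.26-fold range, from 279 to 909 intensity units. Each member was read by 2 probes with 20 spots each, whose median coefficients of variation over spots were 3.8 to 6.6 percent, and no spot of either member was saturated. Pathology was stated for 22 tumours. In these bulk samples fewer cells of a type and less RNA per cell cannot be told apart. The arrays lay on 5 slides, with pool 1 on slide 1 and pool 2 on slide 3.

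miR-107-3p was lower in every tumour than in either normal pool. Its level was 8.86 in pool 1 and 8.07 in pool 2. In the 7 Met tumours it ranged from 5.72 through a median of 6.86 to 7.12, in the 8 MetTrp53 tumours from 6.18 through 6.75 to 7.56, and in the 8 Trp53 tumours from 6.89 through 7.13 to 7.76. The highest tumour, a Trp53 adenocarcinoma, therefore stayed below the lower pool. All tumours lay below both pools for 25 of the 330 miRNAs tested, or 7.58%, and both members are among these 25.

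The mean level of miR-107-3p was 8.46 ± 0.56 (SD, n = 2) in the pools, 6.72 ± 0.48 (SD, n = 7) in Met, 6.85 ± 0.45 (SD, n = 8) in MetTrp53 and 7.22 ± 0.27 (SD, n = 8) in Trp53. Across the 3 genotypes it fell by 1.53 on the log2 scale against normal, 2.90-fold lower (SE 0.30, 95% interval -2.15 to -0.92, limma adjusted p = 0.000675). Calls in that comparison made up 12.7% of the miRNAs tested, calls for lower levels 7.88% and calls for higher levels 4.85%. Against the same pools it fell by 1.74 in Met (limma adjusted p = 0.000652), where 12.4% of miRNAs were called. It fell by 1.62 in MetTrp53 (limma adjusted p = 0.000949), where 14.8% were called. In Trp53 it fell by 1.25 (limma adjusted p = 0.0102), where 13.3% were called. All these comparisons share the 2 pools, so they are not independent of each other.

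These calls depended on pool 1. The pools differed by 0.79 in miR-107-3p, a difference that 35 of the 330 miRNAs equalled or exceeded, while the median absolute difference between the pools was 0.15. Without pool 1 the fitted difference between tumours and normal was -1.14 and the call was lost. The calls were also lost in Met (-1.34), MetTrp53 (-1.22) and Trp53 (-0.85). Without pool 2 all of them were kept, with a difference of -1.93 over the tumours. Either fit leaves 1 normal array. With either pool left out, fewer of all miRNAs tested were called in each comparison with normal, so the loss was not particular to miR-107-3p. Within slide 1 the mean of 4 tumours differed from pool 1 by -1.51, and within slide 3 the mean of 4 tumours differed from pool 2 by -0.86.

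miR-103-3p, as the mean of its 2 probes, was also lower in every tumour than in either pool. On its dimmer probe alone the highest Trp53 tumour, at 7.63, lay above the lower pool, at 7.57. Its level was 8.52 in pool 1 and 8.64 in pool 2, so the pools were close, with a difference of -0.12. It ranged from 6.96 through a median of 8.00 to 8.20 in Met, from 7.08 through 7.68 to 8.42 in MetTrp53 and from 7.64 through 8.28 to 8.42 in Trp53. The highest tumours, at 8.42, came close to pool 1.

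The mean level of miR-103-3p was 8.58 ± 0.09 (SD, n = 2) in the pools, 7.84 ± 0.43 (SD, n = 7) in Met, 7.76 ± 0.43 (SD, n = 8) in MetTrp53 and 8.12 ± 0.32 (SD, n = 8) in Trp53. The difference over the tumours was -0.68 (SE 0.28, 95% interval -1.26 to -0.09) and missed the threshold (limma adjusted p = 0.140). The differences were -0.75 in Met (limma adjusted p = 0.140), -0.82 in MetTrp53 (limma adjusted p = 0.0762) and -0.46 in Trp53 (limma adjusted p = 0.391). The MetTrp53 comparison passed when the MetTrp53 tumour with the highest level was left out (-0.91, limma adjusted p = 0.0366) or when the lowest Met tumour was left out (-0.82, limma adjusted p = 0.0345). It also passed when arrays were scaled by the percentile over all mouse probes, at -1.33 (limma adjusted p = 0.0167). Within slide 1 the tumours differed from pool 1 by -0.26, and within slide 3 from pool 2 by -0.50.

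**Figure D1:**
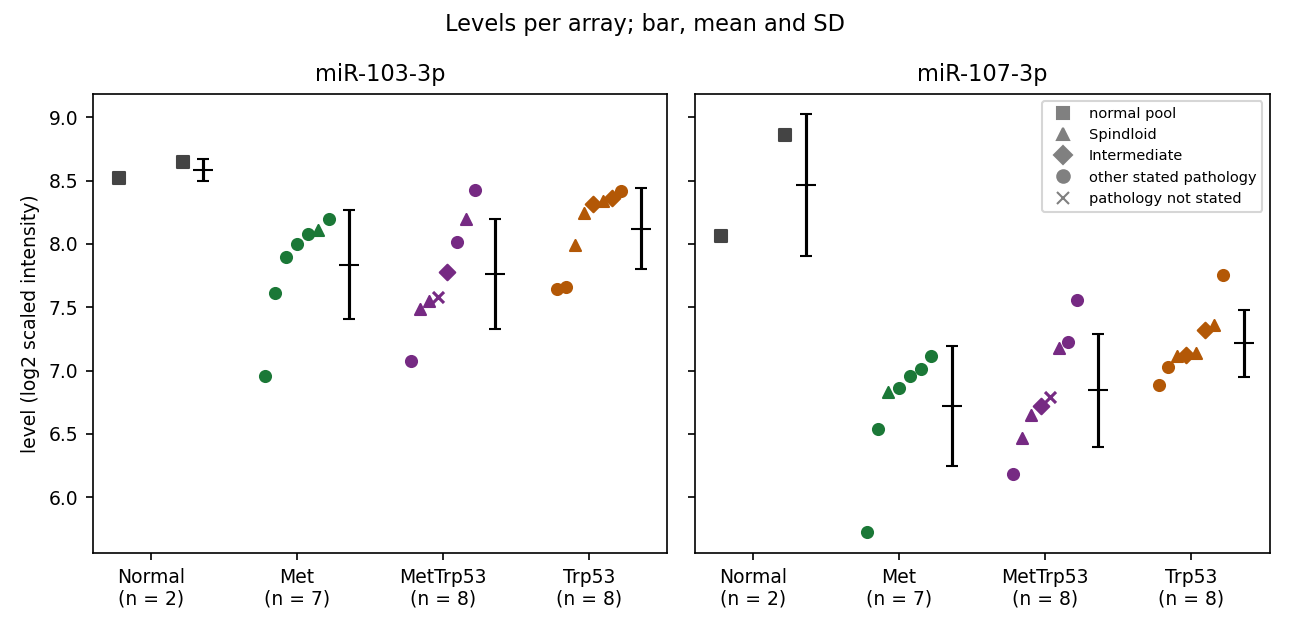
Level of miR-103-3p (left) and miR-107-3p (right) on each array, as log2 scaled intensity, by group; points are sorted by level within a group, marker shapes give the pathology, and the black bar is the mean with the SD. All 23 tumours lie below both normal pools in either miRNA, and the pools lie at 8.07 and 8.86 in miR-107-3p but at 8.52 and 8.64 in miR-103-3p.

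The median difference between tumours and normal was 0.14 over the 330 miRNAs tested and 0.34 over the 160 detected on all arrays. Relative to that 0.34, the differences were -1.02 for miR-103-3p and -1.87 for miR-107-3p. When arrays were scaled by the percentile over all mouse probes, the median of the 160 was 0.01 and the differences were -1.04 and -1.90, so the choice of scale did not change the direction of either member. It did change the split of all calls, from 16 higher and 26 lower to 5 higher and 35 lower.

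Markers of other tissue moved with the comparison. Of 3 adipose miRNAs, miR-378-3p fell by 3.48 in tumours (limma adjusted p = 2.9e-06), miR-365-3p fell by 1.64 (limma adjusted p = 0.00181), and miR-193b-3p differed by -2.09 (limma adjusted p = 0.157). All 3 were detected on every array. The log2 of their summed level was 11.1 in pool 1 and 9.92 in pool 2, and between 6.95 and 9.72 in the tumours. All 5 skeletal muscle miRNAs were detected in both pools and on few tumours, from 0 tumours for miR-499-5p and 5 for miR-206-3p to 8 for miR-133b-3p. Those not detected on at least 7 tumours were kept for testing through the pools alone, so no count of calls is read from the list. The log2 of the muscle sum was 13.3 in pool 1 and 13.8 in pool 2, with a median of 5.86, the floor, in each tumour genotype. Both endothelial miRNAs were called lower, miR-126-3p with a difference of -1.69 (limma adjusted p = 0.0399) and miR-126-5p with -0.40. Of 6 mesenchymal ones 2 were called lower, miR-143-3p with a difference of -2.16 (limma adjusted p = 0.00319) and miR-145-5p with -1.79. miR-126-5p was detected on 12 and miR-145-5p on 15 of the 23 tumours. Over all 330 miRNAs tested, 7.88% were called lower in that comparison. None of the leukocyte, erythroid and epithelial markers was called. Pool 1 was above pool 2 in the endothelial sum (10.99 and 10.69), the erythroid sum (11.1 and 10.3) and the epithelial sum (9.56 and 9.48), as in the adipose one, and below it in the leukocyte (8.22 and 9.76), mesenchymal (9.98 and 10.9) and muscle sums. The part of these tissues in the result for miR-107-3p was not tested.

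The distance from normal was larger in miR-107-3p than in miR-103-3p when both were read on the same array. The log2 difference miR-107-3p minus miR-103-3p carries an offset from the probes, so only its change between groups is read. Offsets between probes were not the same in all groups. The 2 probes of miR-107-3p had means of 9.19 and 7.73 in the pools and of 7.68 and 5.77 in Met. The part of unequal probe response in the change between groups was not tested. The within-array difference was 0.34 in pool 1 and -0.58 in pool 2. It ranged from -1.28 through a median of -1.07 to -0.88 in Met, from -1.08 through -0.88 to -0.79 in MetTrp53 and from -1.19 through -0.92 to -0.63 in Trp53. Every tumour lay below both pools, though the highest tumour, at -0.63, lay close to pool 2.

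The mean was -0.12 ± 0.65 (SD, n = 2) in the pools, -1.12 ± 0.14 (SD, n = 7) in Met, -0.92 ± 0.12 (SD, n = 8) in MetTrp53 and -0.91 ± 0.21 (SD, n = 8) in Trp53. Tumours differed from normal by -0.85 (two-sided exact permutation test, p = 0.00333, the smallest that the 300 relabelings allow, 0.0267 after Benjamini-Hochberg adjustment over 8 comparisons). The genotypes differed from normal by -0.995 in Met, -0.80 in MetTrp53 and -0.78 in Trp53, each with an adjusted exact permutation p of 0.0444. Those p-values too are the smallest that their 36 or 45 relabelings allow, and they leave little room. With either pool left out, or with slides as a block, none of these comparisons with normal could pass after adjustment. All tumours against normal then had 24 or 25 relabelings, and the single genotypes 4 to 9. Those settings therefore cannot show whether the difference holds. The 3 single-genotype calls also went without Met replicate 1, 2 or 7 (adjusted p up to 0.0571), and that of Met without replicates 3, 5 or 6. In MetTrp53 and Trp53 the differences then stayed at -0.80 and -0.78, and only the adjustment over all 8 comparisons moved. Without pool 1 the difference between tumours and normal was -0.40. Within slides it was -1.24 against pool 1 and -0.36 against pool 2.

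The mean differences were alike between the probes of miR-103-3p, while in miR-107-3p the dimmer probe gave a larger drop than the brighter one. The brighter and the dimmer probe of miR-107-3p differed between tumours and normal by -1.34 and -1.73 (limma adjusted p = 0.00181 and 0.000465). Those of miR-103-3p differed by -0.69 and -0.66 (limma adjusted p = 0.139 and 0.158). Each probe of miR-107-3p alone kept every tumour below both pools. The dimmer probe of miR-103-3p did not, and the within-array differences that used it overlapped as well. From the dimmer probe of miR-107-3p that difference reached -0.56 in a Trp53 tumour against -0.67 in the lower pool, and from the brighter one 1.14 against 1.02.

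**Figure D2:**
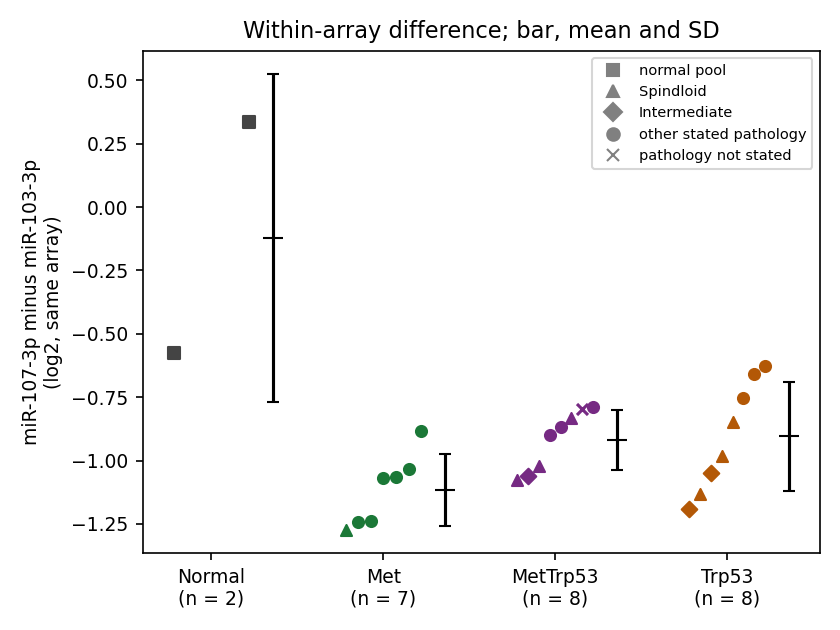
Difference between miR-107-3p and miR-103-3p on the same array (log2), by group, with marker shapes for pathology and the black bar for the mean with the SD. The pools lie at 0.34 and -0.58, and the 23 tumours between -1.28 and -0.63.

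Among the tumours the members were high and low in the same samples. Over the 23 tumours Pearson's r was 0.91 and Spearman's rho 0.87 (permutation p = 1e-05 for either, the smallest that 100000 permutations can give, and 4e-05 after adjustment over 4 relations). Without the 2 tumours farthest from the median in miR-103-3p, 1 MetTrp53 and 1 Met tumour, r was 0.83. Both values of a sample share the scaling of its array, and the probe sets read nearly the same sequence.

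**Figure D3:**
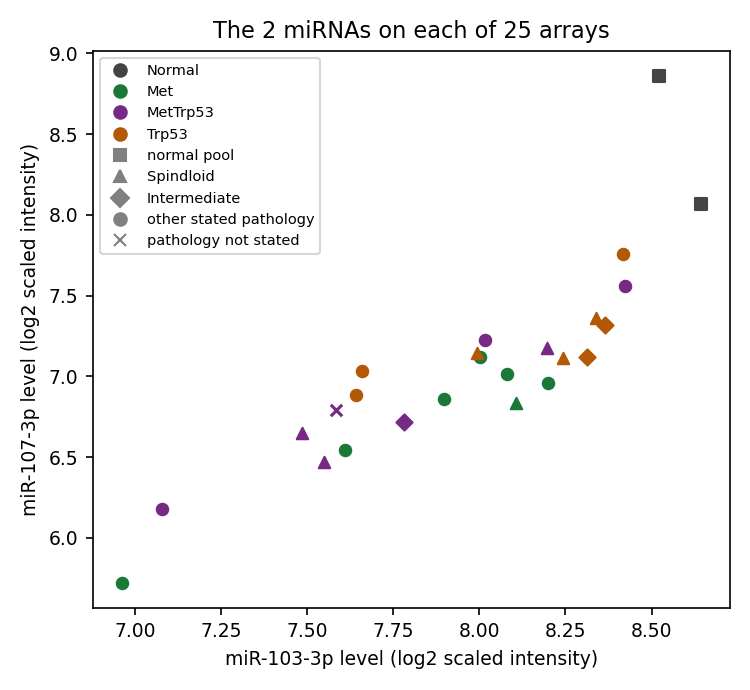
Level of miR-107-3p against miR-103-3p on each of the 25 arrays (log2 scaled intensity), with colour for the group and shape for the pathology. The 23 tumours run along 1 band (r = 0.91), and both normal pools sit above it at the right, pool 2 close to its upper edge. miR-107-3p minus miR-103-3p was 0.34 in pool 1, -0.58 in pool 2 and at most -0.63 in the tumours.

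The order of the group means was Normal, Trp53, Met, MetTrp53 for miR-103-3p and Normal, Trp53, MetTrp53, Met for miR-107-3p. For miR-103-3p no neighbours in that order differed past the threshold. For miR-107-3p only Normal and Trp53 did, among neighbours.

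The question of the genotype comparisons is whether the level depends on the Met transgene or on Trp53 deletion. Neither member was called between any of the genotypes. Met tumours differed from Trp53 tumours by -0.28 in miR-103-3p (95% interval -0.69 to 0.12, limma adjusted p = 0.405) and by -0.49 in miR-107-3p (95% interval -0.93 to -0.06, limma adjusted p = 0.141). In that comparison 10% of the tested miRNAs were called. Of the 7 Met tumours, 2 lay below the lowest Trp53 tumour in miR-103-3p and 4 in miR-107-3p, and the groups overlapped. Of 7 epithelial miRNAs, 3 of the miR-200 family were called in the same comparison, with miR-200c-3p higher in Met by 4.43, miR-141-3p by 3.43 and miR-200a-3p by 2.85 (limma adjusted p = 0.0241, 0.0127 and 0.0341). The other 4 were not, among them miR-200b-3p and miR-429-3p of that family (limma adjusted p = 0.0606 and 0.0750). Mesenchymal miR-199b-5p differed by -2.16 (limma adjusted p = 0.0445), as 1 of 6 in its list, and leukocyte miR-223-3p by -1.64 (limma adjusted p = 0.0422), as 1 of 5. The lists did not move as a whole. Of the 6 mesenchymal differences 4 were negative (median -1.48), and of the 5 leukocyte ones 2 were (median 0.06). The rest were positive. The log2 sum of the 7 epithelial markers ranged from 6.37 to 12.2 in Met and from 6.35 to 11.2 in Trp53, and the part of these markers in the values of the pair was not tested.

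MetTrp53 tumours differed from Met tumours by -0.07 in miR-103-3p (95% interval -0.48 to 0.33, limma adjusted p = 0.853) and by 0.12 in miR-107-3p (95% interval -0.31 to 0.56, limma adjusted p = 0.789). They differed from Trp53 tumours by -0.36 in miR-103-3p (95% interval -0.75 to 0.04) and by -0.37 in miR-107-3p (95% interval -0.79 to 0.05), with limma adjusted p = 0.732 for both. Limma called 0 miRNAs (0.0%) in either comparison, with 61 and 23 of the 330 at an unadjusted p under 0.05. The intervals include differences of up to about the spread between tumours of 1 genotype, so equal levels are not shown.

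The within-array difference passed between 1 of the 3 pairs of genotypes. It was higher in MetTrp53 than in Met by 0.20 (exact permutation p = 0.0152, adjusted 0.0444), though only 3 of 7 Met tumours lay below the lowest MetTrp53 tumour. This call was lost without any of Met replicates 1, 2 and 7 (differences of 0.18, 0.17 and 0.18), without either normal pool (0.20, since the adjustment spans all 8 comparisons) and with slide (0.17), scan day (0.20) or parity (0.30) in the test. Within slides 1 to 5 the difference was 0.37, 0.10, -0.02, 0.07 and 0.42. Met differed from Trp53 by -0.21 (exact permutation p = 0.0483, adjusted 0.0644), and MetTrp53 from Trp53 by -0.01 (exact permutation p = 0.887). The first of these passed without Met replicate 4 (-0.25) and without Trp53 replicates 6 or 7 (-0.25 and -0.24). Within slides it was -0.49, -0.48, 0.16, 0.11 and -0.26, so its sign changed between slides.

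**Figure D4:**
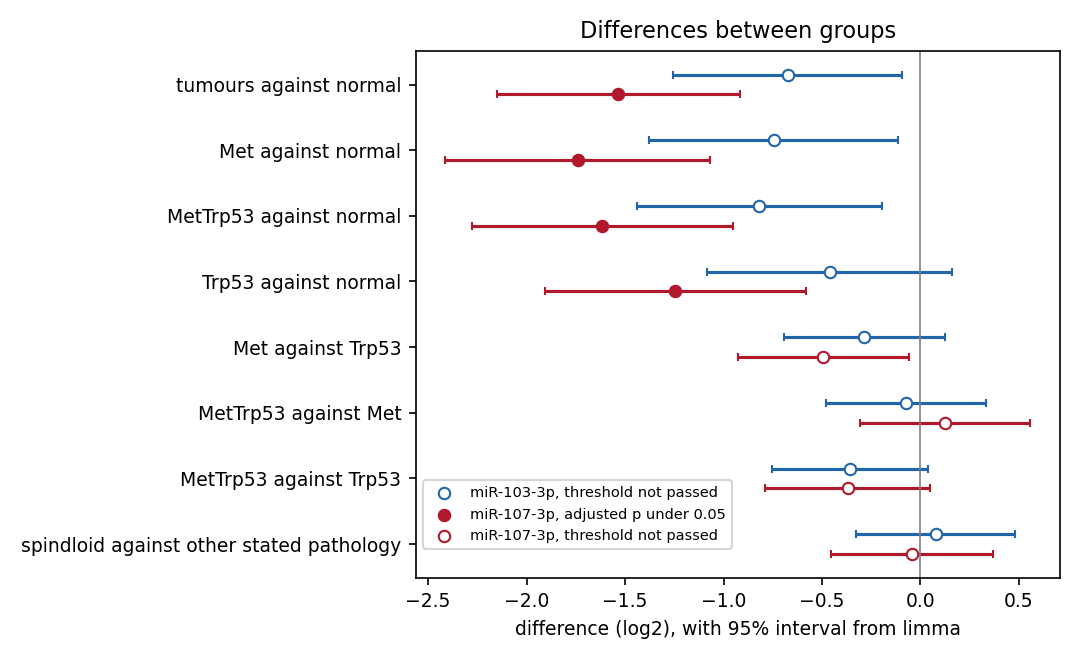
Differences between groups for miR-103-3p (blue) and miR-107-3p (red) on the log2 scale, with 95% intervals from limma; filled points passed an adjusted p of 0.05. The 4 comparisons of miR-107-3p with normal are filled, from -1.25 to -1.74, and all other points are open.

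Parity was unevenly spread over the genotypes, with 6 of the Met, 2 of the MetTrp53 and 2 of the Trp53 tumours from multiparous mice. It was not stated for 1 Met and 3 Trp53 tumours, and no Met tumour was labelled nulliparous. miR-107-3p was 7.39 ± 0.23 (SD, n = 2) in multiparous and 6.66 ± 0.33 (SD, n = 6) in nulliparous MetTrp53 tumours. In Trp53 tumours it was 7.12 ± 0.01 (SD, n = 2) in multiparous and 7.16 ± 0.14 (SD, n = 3) in nulliparous mice. The pools, 1 of each parity, give 1 value each, with 8.86 for multiparous and 8.07 for nulliparous mice, so that parity, slide and pool cannot be told apart there.

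Neither member was called between spindloid and other tumours. Spindloid tumours, whose cells have a spindle shape, had a mean of 7.99 ± 0.34 (SD, n = 7) in miR-103-3p, against 7.90 ± 0.45 (SD, n = 15) in tumours of other stated pathology. In miR-107-3p the means were 6.96 ± 0.32 (SD, n = 7) and 6.93 ± 0.51 (SD, n = 15). With genotype in the model the differences were 0.08 in miR-103-3p (95% interval -0.33 to 0.48, limma adjusted p = 0.943) and -0.04 in miR-107-3p (95% interval -0.46 to 0.37, limma adjusted p = 0.949). Limma called 0 of the 330 miRNAs (0.0%) here, with 41 at an unadjusted p under 0.05. The within-array difference was -1.02 ± 0.16 (SD, n = 7) in spindloid and -0.96 ± 0.20 (SD, n = 15) in other tumours, a difference of -0.12 with genotype held (exact permutation p = 0.141, adjusted 0.162). Without the 3 intermediate tumours it was -0.21 (exact permutation p = 0.00429, with no other comparison to adjust over). The intermediate tumours, counted among the other tumours above, were at -1.10 ± 0.08 (SD, n = 3).

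Over single pathologies, miR-103-3p was 7.86 ± 0.70 (SD, n = 4) in adenocarcinomas, 7.58 ± 0.47 (SD, n = 3) in poorly differentiated adenocarcinomas, 7.90 ± 0.29 (SD, n = 3) in solid nodular carcinomas and 8.15 ± 0.32 (SD, n = 3) in intermediate tumours. The 1 adenosquamous tumour was at 8.00 and the 1 scirrhous adenocarcinoma at 8.08. miR-107-3p was 6.98 ± 0.92 (SD, n = 4), 6.81 ± 0.56 (SD, n = 3), 6.79 ± 0.22 (SD, n = 3) and 7.05 ± 0.30 (SD, n = 3) in the same 4 classes, and 7.12 and 7.01 in the single tumours. The adenocarcinomas held both the lowest tumour of the series, a Met tumour at 5.72 in miR-107-3p, and the highest, a Trp53 tumour at 7.76. The adenocarcinomas alone spanned more than the distance between the class means, and solid nodular carcinomas came only from Met mice.

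The relatives of the pair in the group of miR-15 and miR-107 did not share its drop as a set. Relatives that passed a test and the one with its own seed are shown to set their 5′ ends beside that of the pair, with the seed in capitals.

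miR-15b-5p: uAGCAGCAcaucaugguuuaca

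miR-16-5p: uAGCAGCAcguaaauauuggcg

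miR-503-5p: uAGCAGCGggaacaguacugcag

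The seed AGCAGCA is shared by 6 members, miR-15a-5p, miR-15b-5p, miR-16-5p, miR-195-5p, miR-497-5p and miR-322-5p, and AGCAGCG is that of miR-503-5p. The bases AGCAGCA stand at positions 1 to 7 in the pair and 2 to 8 in those 6. All 9 members were tested. In tumours against normal 1 was higher, 1 was lower and 7 were not called, where 4.85% of all miRNAs tested were called higher and 7.88% lower, with a median difference of 0.14, equal to that over all 330.

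The member that rose was miR-15b-5p, a miRNA of the miR-16 clusters known for acting on the cell cycle and on BCL2, by 1.42 (SE 0.22, limma adjusted p = 8.59e-05), and it lay above both pools in 23 of 23 tumours, as did 5.76% of the miRNAs tested. The member that fell was miR-107-3p. miR-16-5p differed by 0.46, miR-503-5p by 0.52, miR-322-5p by 0.36 and miR-15a-5p by 0.14. The clustered pair miR-195-5p and miR-497-5p differed by -1.64 and -1.32 with SEs of 0.75 and 0.70, and were lower than both pools in 20 and 19 of 23 tumours. In Trp53 against normal miR-16-5p rose as well, by 0.71 (limma adjusted p = 0.0283). Between Met and Trp53 tumours only miR-16-5p among the 9 was called, with a difference of -0.58 (limma adjusted p = 0.00919). That is near the 10% called over all 330 in this comparison. The differences of the group were not tested against one another.

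**Figure D5:**
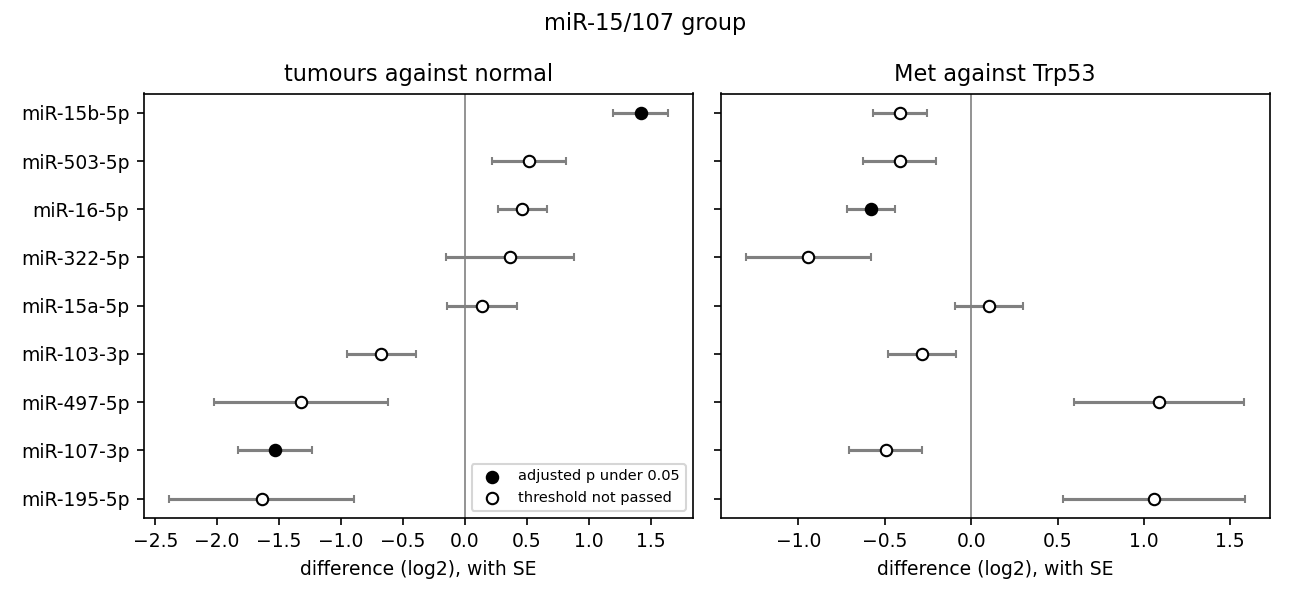
Differences of the 9 members of the group of miR-15 and miR-107 for tumours against normal (left) and Met against Trp53 (right), on the log2 scale with the standard error; filled points passed an adjusted p of 0.05 over all 330 miRNAs. On the left miR-15b-5p lies at 1.42 and miR-107-3p at -1.53, and on the right only miR-16-5p, at -0.58, is filled.

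Of 10 miRNAs described as induced by p53, miR-107-3p included, 7 were tested. In tumours against normal 0 were higher and 2 were lower, miR-107-3p and miR-145-5p, a miRNA of smooth muscle and stroma, which fell by 1.79 (limma adjusted p = 5.11e-06). Over all 330, 7.88% were called lower and 4.85% higher. The median difference was -0.08, against 0.14 over all 330. miR-34a-5p, the best known p53 target among miRNAs, differed by 0.77 from normal over all tumours (limma adjusted p = 0.289). It rose in Met against normal, by 1.62 (limma adjusted p = 0.0269), and differed by 0.44 in MetTrp53 and 0.25 in Trp53, which were not called. It was higher in Met than in Trp53 tumours by 1.38 (limma adjusted p = 0.00573), where miR-107-3p differed by -0.49. This was the 1 call among the 7 tested in that comparison, where 10% of all 330 were called. The lists were chosen with results of these data known.

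The miRNAs whose levels over the 23 tumours were most like miR-103-3p, among the other 159 detected on all arrays, were miR-107-3p (r = 0.91), miR-151-5p (r = 0.75), let-7d-5p (r = 0.73), miR-324-5p (r = 0.73) and miR-345-5p (r = 0.72). For miR-107-3p they were miR-103-3p, miR-185-5p (r = 0.80), miR-532-5p (r = 0.72), miR-151-5p (r = 0.69) and let-7d-5p (r = 0.69). These values describe arrays that share their scaling. Of the 6 others, none was called in tumours against normal, with differences from -0.18 for miR-151-5p to 0.59 for miR-324-5p.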

How the data were processed

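Spot intensity values were deposited by the authors as scanner output of Agilent Feature Extraction, background-subtracted and not normalised between arrays, per the file headers. The deposited log2 table followed the same intensities, and the submitters' processing notes name RMA; its centring is unknown. Detection came from the deposited flags of the scanner software, a value of another kind per the file headers. Spots flagged as outliers were left out, and intensities were averaged over the spots of a probe. These averages were divided by each array's 75th percentile over the 221 mouse probes well above background on all 25 arrays. They were set to a floor of 0.0212 of that percentile, logged, and averaged over the probes of a miRNA, so that the lowest level is 3.54. A miRNA was tested if detected on at least 7 tumour arrays or both pools (330 of 1122). The main setting was limma 3.58.1 in R 4.3.3 with Benjamini-Hochberg adjusted p under 0.05 on all arrays; spindloid tumours were compared among 22 tumours with genotype as a covariate. Within-array differences were tested by exact permutation (within genotype for pathology), adjusted over 8 comparisons, or over fewer where an alternative covered only some of them. Both tests were checked on simulated data. The array number limits the precision. Replicates were numbered in accession order. The labels do not say that each tumour came from its own mouse, and 2 pairs of Trp53 tumours share a title number, so p-values cover only the variation among these arrays, which may be technical. The background correction alternative used the median signal with an offset of 50, since the files used here have no mean signal column. The genes named were the members, called members of the lists, the markers, and the 5 miRNAs most like each member. The alternatives were other background corrections, scalings, floors, probe choices, filters, blocks (slide, scan day) and covariates (parity, pathology), and each sample left out; normexp, within-slide values and single probes were chosen after seeing the data. The members and lists were chosen with earlier results of these data known.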

Additional observations from a re-analysis of the deposited data

Results flagged for a closer look

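In miR-107-3p, Met replicate 7, an adenocarcinoma of a multiparous mouse, was at 5.72, while the nearest other Met tumour was at 6.54. The gap was 0.587 of the range of the group, against a critical value of 0.568 for 7 samples. It was 1 of 9 sets of values checked, and chance flags about 1 in 20. The same array had the lowest miR-103-3p level of the series, 6.96.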

How the results depend on the processing

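Of 1016 alternative values, 913 kept their direction and their side of the threshold. The fall of miR-107-3p against normal passed in its 4 comparisons under every setting that kept all samples, and under every left-out sample except pool 1. For the within-array difference, blocks and covariates leave few relabelings. The cause of the other changes was not tested. The labels give no replicate numbers shared by the groups, so arrays were matched only by slide and scan day.

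Scaling by the percentile over all mouse probes called miR-103-3p in MetTrp53 against normal (-1.33) and turned miR-107-3p in MetTrp53 against Met (-0.040). That comparison in miR-103-3p turned to 0.086, 0.020, 0.087 and 0.21 with quantile normalisation, the authors' deposited table (centred and as deposited) and parity. Without a detection filter miR-107-3p was called in Met against Trp53 at an unchanged difference (-0.49), where 769 of the 1122 miRNAs were called. In spindloid tumours miR-107-3p turned to 0.11, 0.070, 0.11 and 0.024 with quantile normalisation, the authors' deposited table, slide and parity.

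The within-array difference between tumours and normal lost its call with the dimmest probe, slide, scan day and parity (-1.07, -0.80, -0.78 and -0.88). With normexp, quantile normalisation, the authors' deposited table, the dimmest probe, slide, scan day and parity, in that order, calls were lost in Met against normal (-0.66, -1.08, -0.98, -1.22, -0.94, -0.93 and -1.47), MetTrp53 against normal (-0.52, -0.76, -0.85, -1.04, -0.70, -0.71 and -0.72) and Trp53 against normal (-0.55, -0.85, -0.81, -0.97, -0.83, -0.64 and -0.84). MetTrp53 against Met lost its call with the authors' deposited table, the dimmest probe, slide, scan day and parity (0.13, 0.18, 0.17, 0.20 and 0.30). Met against Trp53 turned with parity (0.032) and was called with pathology (-0.38). MetTrp53 against Trp53 turned with normexp, quantile normalisation, the brightest probe, summed signal, slide, scan day, averaged title numbers and parity (0.034, 0.088, 0.046, 0.018, 0.015, 0.012, 0.038 and 0.041). Spindloid tumours were called without intermediate tumours (-0.21), with no other comparison to adjust over.

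With 1 sample left out, miR-103-3p ranged over -0.91 to -0.72 in MetTrp53 against normal, -0.22 to 0.025 in MetTrp53 against Met and -0.0034 to 0.16 in spindloid tumours. miR-107-3p ranged over -1.93 to -1.14 for tumours, -2.14 to -1.34 for Met, -2.01 to -1.22 for MetTrp53 and -1.64 to -0.85 for Trp53 against normal, -0.041 to 0.22 in MetTrp53 against Met and -0.12 to 0.038 in spindloid tumours. The within-array difference ranged over -1.31 to -0.40, -1.45 to -0.54, -1.25 to -0.34 and -1.24 to -0.33 in the same comparisons with normal, -0.25 to -0.17 in Met against Trp53, 0.17 to 0.24 in MetTrp53 against Met, -0.053 to 0.027 in MetTrp53 against Trp53 and -0.15 to -0.092 in spindloid tumours.

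Counts of called miRNAs moved by over 1.5 times as follows. Tumours against normal went from 42 to 26 over miRNAs detected on all arrays. With normexp, no filter and that stricter filter, Met against normal went from 41 to 26, 24 and 27 (and 19 with only 2 groups fitted), MetTrp53 against normal from 49 to 30, 30 and 30, and Trp53 against normal from 44 to 28, 28 and 21. Met against Trp53 went from 33 to 21, 769, 7 and 7 with normexp, no filter, parity and pathology. MetTrp53 against Met went from 0 to 16, 7 and 6 with the authors' deposited table, a floor 4 times lower and the stricter filter. MetTrp53 against Trp53 went from 0 to 721 of 1122 without a filter, and the spindloid comparison from 0 to 6, 1, 1 and 16 with normexp, the authors' deposited table, the lower floor and no intermediate tumours. With 1 sample left out the counts were 17 to 46, 13 to 44, 22 to 54 and 20 to 52 against normal, 18 to 62 in Met against Trp53, 0 to 41 in MetTrp53 against Met and 0 to 1 in spindloid tumours.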
